A study of Mus musculus with 3 samples.

Results

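Malat1 and Neat1 are long non-coding RNAs (lncRNAs) that stay in the nucleus, and their cover by Argonaute 2 (Ago2) peaks was described in N2A cells, a mouse neuroblastoma line. The 2 genes were chosen by name, and their members in the data were all peaks that touch either gene body on either strand. They are 2 of the 55413 genes that GENCODE mouse M21 annotates on the 21 primary nuclear chromosomes, of which 13374 are lncRNA genes. The assay, HITS-CLIP, maps where Ago2 sits on RNA: ultraviolet light links proteins to bound RNA in living cells, an antibody pulls down Ago2, and the RNA pieces that come with it are sequenced. The 3 libraries form a single group of N2A cells under basal conditions, with no knockout, treatment or control immunoprecipitation among them. The cells grew in a high-glucose medium with inactivated fetal bovine serum and penicillin-streptomycin. They were irradiated at 400 mJ/cm2 and then 2 times at 200 mJ/cm2, and the antibody was anti-Ago2 (Wako clone 2D4). Nothing says whether the replicates came from separate cultures, so the spread between them may be technical.

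Malat1 is among the most abundant nuclear RNAs and gathers at nuclear speckles, where splicing factors are stored. Neat1 has a short and a long form, and the long form is the scaffold of paraspeckles, nuclear bodies built with proteins such as NONO and SFPQ. Neither RNA ends in an ordinary poly(A) tail at its long 3′ end. There RNase P cuts off a small tRNA-like RNA, and the new end folds into a triple helix of U-rich and A-rich stretches. Ago2 carries microRNAs (miRNAs), which pair with targets mainly through their seed, the bases at positions 2 to 8. A peak can thus mark a target RNA or the miRNA itself.

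The table lists intervals with no read counts, so the depth was unknown and the share of a gene under peaks measures neither the strength of binding nor the amount of RNA. Replicates 1, 2 and 3 held 711377, 498071 and 829936 peaks. Interval starts as low as -30 point to 30 nt of padding at either edge of a peak, and the peak without this padding is called its central part. Of the 18 neuroblastoma marker genes listed, 8 had an exonic stretch of 8 nt or more that lay under peaks of every library, against 18.9% of protein-coding genes. The sympathetic regulator Hand2 was among them, while Th, which makes the catecholamine precursor, lay under no peak in any library. Among markers of other cells, 1 of 7 myeloid, 0 of 5 erythroid, 1 of 5 hepatocyte and 0 of 5 muscle genes had such a stretch.

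Malat1 (ENSMUSG00000092341.3) lies on the minus strand at chr19:5795690-5802672 of GRCm38, and its annotated body of 6983 nt has no intron in the longest transcript. Neat1 (ENSMUSG00000092274.3) lies upstream of it at chr19:5824708-5845478 on the same strand, with a body of 20771 nt. The stretch between the genes is 22035 nt long. A short Neat1 transcript covers chr19:5842307-5845476, the 5′ part of the long form. RefSeq places Mascrna, the small RNA cut from Malat1, at chr19:5795924-5795981. GENCODE places a small RNA of unnamed function, Gm27702, at chr19:5824652-5824707, directly after the Neat1 body.

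The 3′ ends are shown first because the peaks of both genes stop near them and because the genes share letters there. Each run reads 5′ to 3′ on the minus strand, with the small RNA in capitals. The Malat1 run is chr19:5795924-5796181 and the Neat1 run is chr19:5824652-5824851 (GRCm38).
Malat1 with Mascrna: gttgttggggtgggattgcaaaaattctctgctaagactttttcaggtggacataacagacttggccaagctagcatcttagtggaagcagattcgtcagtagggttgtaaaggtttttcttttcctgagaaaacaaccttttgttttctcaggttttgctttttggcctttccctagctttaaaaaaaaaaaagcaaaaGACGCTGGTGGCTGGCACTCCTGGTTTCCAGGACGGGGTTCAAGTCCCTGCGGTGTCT
Neat1 with Gm27702: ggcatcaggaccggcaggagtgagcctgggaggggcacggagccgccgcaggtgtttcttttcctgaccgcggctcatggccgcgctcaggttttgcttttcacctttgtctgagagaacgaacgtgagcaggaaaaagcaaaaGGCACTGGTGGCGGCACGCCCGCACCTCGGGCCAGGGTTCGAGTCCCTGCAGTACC

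A comparison of the small RNAs and the 200 nt before them found 5 shared stretches of at least 8 bases, in the same order in both genes. The longest, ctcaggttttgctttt, is 16 bases long and ends 37 nt before Mascrna and 44 nt before Gm27702. A U-rich stretch of 13 bases, tttcttttcctga, lies before it. The A-rich stretch aaaaagcaaaag runs up to and into the first base of each small RNA. The remaining stretches, of 8 and 9 bases, lie inside the small RNAs.

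Peaks reached these ends to a different extent in the pair. In Malat1, the last peak before Mascrna stopped 68 nt short of it in replicate 1 and 66 nt short in replicate 3. In replicate 2 it ran 15 nt into Mascrna, although its central part stopped 15 nt before it. Of the last 100 nt before Mascrna, 32, 100 and 34 nt lay under peaks in replicates 1, 2 and 3, and of the 100 nt upstream of those all lay under peaks in each library. The longest shared stretch was thus covered in Malat1 in replicate 2 alone. No central part touched Mascrna itself in any library.

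Neat1 peaks came closer to the small RNA than Malat1 peaks did in replicates 1 and 3, and less close in replicate 2. Of the last 100 nt before Gm27702, 100, 96 and 93 nt lay under peaks in replicates 1, 2 and 3, and of the 100 nt upstream of those 4, 100 and 100 nt did. The longest shared stretch lay fully under peaks in all 3 libraries. Central parts reached 1 nt into Gm27702 in replicate 1 and stopped 34 and 5 nt before it in replicates 2 and 3. Beyond the small RNAs, the remaining 234 nt of the annotated Malat1 body held no peak in replicates 1 and 2 and a single peak of 99 nt in replicate 3.

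**Figure D1:**
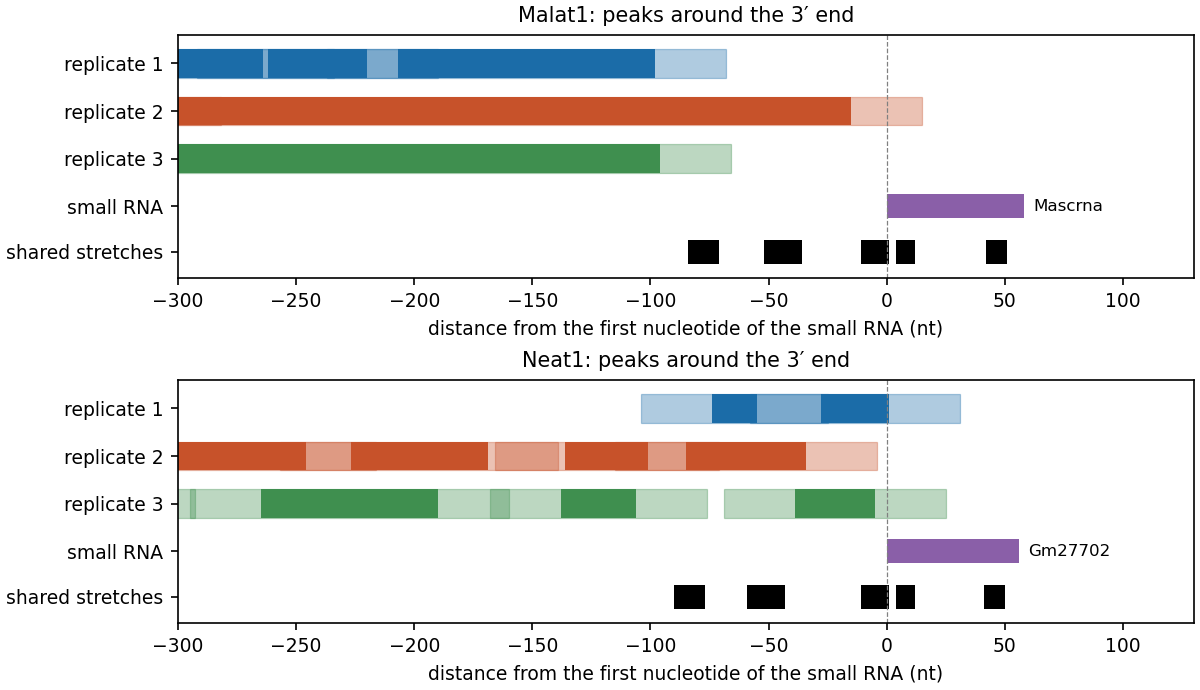
Peaks around the 3′ ends of Malat1 and Neat1, by distance in nt from the first nucleotide of the small RNA, with upstream to the left. Pale bars are peaks of replicates 1 to 3 as deposited, dark bars their central parts, purple the small RNA and black the 5 stretches of at least 8 bases that both genes share. Malat1 peaks of replicates 1 and 3 end 68 and 66 nt before Mascrna, while Neat1 peaks of every library come within 4 nt of Gm27702 or run into it.

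Malat1 was covered along most of its length in every library. Replicates 1, 2 and 3 had 58, 53 and 16 peaks on its strand, a mean of 42.3 ± 22.9 (SD, n = 3). The low number in replicate 3 came with wider peaks: the median width was 100, 119 and 296 nt, and the widest peaks were 400, 522 and 2059 nt. Over all peaks of a library the median width was 83 to 85 nt. The covered share of the gene body was 78.4%, 87.2% and 95.8%, a mean of 87.1% ± 8.66 (SD, n = 3). The library with the fewest peaks had the highest cover, and this rested on its widest peaks. With peaks of at most 1000 nt only, the shares were 78.4%, 87.2% and 67.8%, with replicate 3 the lowest. With peaks of 86 to 200 nt only they were 55%, 50.4% and 8.88% (mean 38.1%), and with peaks of score 60 only 58.2%, 60.5% and 14.6% (mean 44.5%).

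With all peaks, the covered share of Neat1 varied far more between libraries. The gene had 63, 187 and 142 peaks on its strand in replicates 1, 2 and 3, a mean of 131 ± 62.8 (SD, n = 3). The median widths were 89, 111 and 114 nt, and in replicate 1 no Neat1 peak was wider than 148 nt. The covered share was 26.4%, 91.8% and 83.3%, a mean of 67.2% ± 35.6 (SD, n = 3), and by central parts alone it was 10.5%, 67.4% and 62%. With peaks of 86 to 200 nt only the SD was 23.3 in Neat1 and 25.4 in Malat1, and with peaks of score 60 only it was 22.6 and 25.9. Neat1 cover was lowest in replicate 1 under each of these settings. Over the 14738 genes with at least 3000 nt of exons, the median exonic cover was also lowest in replicate 1, at 2.54%, 4.37% and 5.53% in replicates 1, 2 and 3.

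Peaks tiled Malat1 in every library and Neat1 in replicates 2 and 3. In Malat1, 51 of 58, 51 of 53 and 15 of 16 peaks of replicates 1, 2 and 3 touched or overlapped a neighbouring peak of the same library. In Neat1 the numbers were 28 of 63, 178 of 187 and 124 of 142. Among all peaks of a library on either strand, 3.89%, 12.3% and 15.1% did so. Most of this contact lay in the padding: the median gap between neighbouring central parts was 32, 16.5 and 15 nt in Malat1, and 229, 18 and 24 nt in Neat1. With the padding included, the longest unbroken block in Malat1 was 1015, 2432 and 5978 nt in replicates 1, 2 and 3. In Neat1 it was 189, 2080 and 2664 nt. Central parts of neighbouring peaks did not overlap in either gene.

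**Figure D2:**
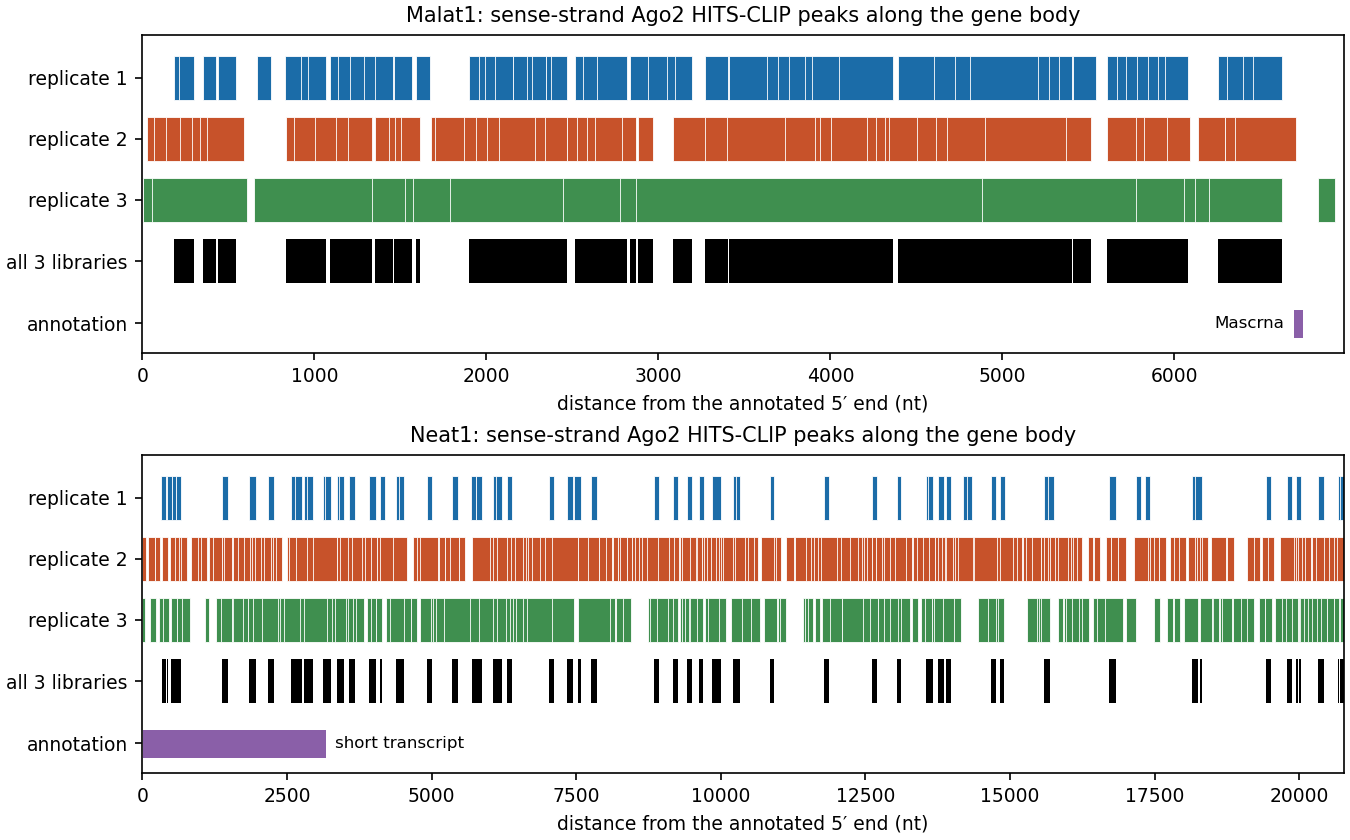
Sense-strand peaks along Malat1 (top) and Neat1 (bottom), by distance in nt from the annotated 5′ end, with a row for each of replicates 1 to 3 and thin white lines at peak edges. Black marks common regions, under peaks of all 3 libraries, and purple marks Mascrna and the short Neat1 transcript. Malat1 is tiled in every library, while Neat1 is tiled in replicates 2 and 3. In replicate 1 of Neat1, 28 of 63 peaks touch a neighbour and the others stand apart.

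Scores below the maximum of 60 were frequent in the pair. The score has no stated unit. In Malat1, 20.7%, 17% and 50% of peaks scored below 60 in replicates 1, 2 and 3, and in Neat1 4.76%, 13.9% and 17.6% did. Over all peaks of a library these shares were 1.14%, 0.678% and 0.35%. Width went with them: in replicate 3, 8 of 10 Malat1 peaks over 200 nt and 0 of 6 narrower ones scored below 60, and in replicate 2, 19 of 24 Neat1 peaks over 200 nt and 7 of 163 narrower ones did. Among all peaks over 200 nt, 5.84%, 3.76% and 3.07% scored below 60 in replicates 1, 2 and 3, while 3 of 4, 6 of 11 and 8 of 10 Malat1 peaks of that width did. Of the narrower Malat1 peaks of replicate 1, 9 of 54 did, beside 0.921% of all narrower peaks. Scores below 60 were thus more frequent in Malat1 than among all peaks for peaks over 200 nt in each library and for narrower peaks in replicate 1. Of all narrower peaks of replicate 3, 0.22% scored below 60, beside the 0 of 6 in Malat1.

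The peaks lay almost wholly on the strand of the genes. On the opposite strand, Malat1 had 2, 1 and 2 peaks in replicates 1, 2 and 3 and Neat1 had 1, 2 and 1, each between 79 and 84 nt wide. Antisense cover was 1.95% ± 0.707 of Malat1 and 0.528% ± 0.235 of Neat1 (SD, n = 3). Sense exceeded antisense cover by 76.1, 86.1 and 93.4 percentage points in Malat1 and by 26.0, 91.0 and 82.9 in Neat1, in 3 of 3 libraries for each gene (exact sign-flip permutation test, two-sided, p = 0.25, the smallest that 3 libraries allow). No stretch was covered on the opposite strand in more than a single library. Neither gene had an antisense stretch of 8 nt or more shared by every library, where 0.917% of all annotated genes had one opposite their exons.

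Apart from 2 wide peaks at the 5′ side of Neat1, the cover ended with the genes. In the 10 kb on each side of Malat1, on its strand and outside exons of other genes, 1.79%, 1.72% and 3.08% of nt lay under peaks in replicates 1, 2 and 3. The gene body exceeded these flanks by 84.9 ± 8.02 percentage points (SD, n = 3, in 3 of 3 libraries; exact sign-flip permutation test, two-sided, p = 0.25). For Neat1 the flanks held 1.12%, 22.4% and 19.9%, and the excess of the body was 52.7 ± 23.9 percentage points (SD, n = 3, in 3 of 3 libraries; exact sign-flip permutation test, two-sided, p = 0.25). A peak of 3762 nt in replicate 2 that reaches from upstream to 54 nt inside Neat1, and a peak of 3134 nt in replicate 3, made up most of the flank cover in these libraries. With peaks of at most 1000 nt only, the Neat1 flanks held 1.12%, 0.467% and 1.70%. Between the genes, 1.26%, 0.359% and 1.03% of the 22035 nt lay under peaks.

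**Figure D3:**
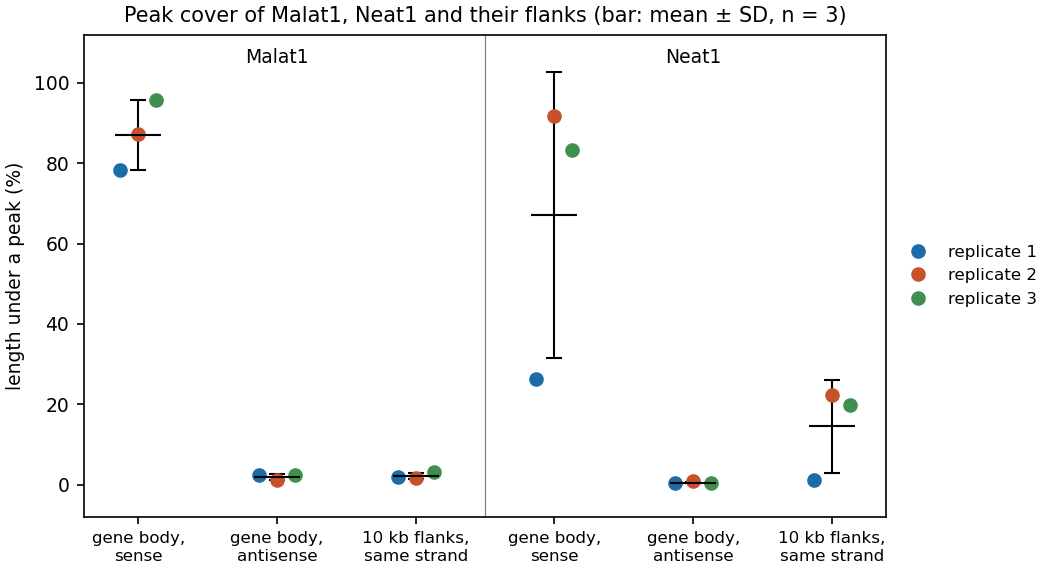
Share of length (%) under a peak in the gene body on its own strand, on the opposite strand, and in the 10 kb flanks on the same strand, for Malat1 (left) and Neat1 (right). Points are replicates 1 to 3, and the bar and whiskers are the mean ± SD (n = 3). Sense cover lies above antisense and flank cover in every library, and replicate 1 is low in Neat1 at 26.4%.

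Frmd8, a protein-coding gene upstream of Neat1, had 14.4%, 1.41% and 2.57% of its body, introns included, under peaks on its own strand in replicates 1, 2 and 3. Frmd8os, on the opposite strand beside Neat1, had 85% in replicate 1, from a single wide peak, and none in the others. Inside Malat1, the annotated small RNA Gm27694 was fully covered in each library and Gm37376, on the opposite strand, in none. Inside Neat1, Gm28006 was covered for 98.4%, 70.5% and 66.4%, while Gm27533 and Gm27505 lay under no peak in replicate 1.

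Common regions, sequence of 8 nt or more under peaks of every library, were then mapped. Malat1 held 22 of 20 to 1015 nt, with a median of 120 nt, which made up 73.8% of its body. Neat1 held 52 of 13 to 183 nt, with a median of 90.5 nt, which made up 23.0%. Both genes were thus called, where 8.37% of all genes and 1.15% of lncRNA genes had at least 1 common region in their exons. The share of all genes was 17.2% without replicate 1 and 13.8% without replicate 2. Among the 1899 lncRNA genes with at least 3000 nt of exons the share was 3.16%. In Neat1 replicate 1 set the limit: without it the common share was 76.1%, and at least 2 libraries covered 79.3%. Without replicate 1 the Malat1 regions numbered 9.

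The common share depended on which peaks were used. With only the central parts it was 41.1% in Malat1 and 6.58% in Neat1. With peaks of at most 1000 nt only it was 49.1% in Malat1, where the peak of 2059 nt in replicate 3 dropped out, and 23% in Neat1, as with all peaks. With peaks of 86 to 200 nt only it was 2.11% in Malat1 and 7.25% in Neat1, and with peaks of score 60 only it was 4.8% and 10.2%.

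The libraries covered largely the same nucleotides of Malat1. Of the nucleotides under replicate 1 peaks, 94.0% lay under replicate 2 peaks and 100% under replicate 3 peaks, while these libraries covered 87.2% and 95.8% of the body. In Neat1, 98.4% of the nucleotides under replicate 1 peaks lay under replicate 2 peaks and 88.6% under replicate 3 peaks, beside 91.8% and 83.3% of the body. Uncovered in every library were 215 nt of Malat1 in 3 stretches and 190 nt of Neat1 in 10 stretches. The longest of these in Malat1, 126 nt at chr19:5795841-5795966, holds part of Mascrna.

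Cover was uneven along Malat1. In bins of 500 nt from the 5′ end, the bins from 3501 to 4000 nt and from 4501 to 5000 nt were fully covered in all 3 libraries. The last bin had the lowest cover, at 25.5%, 42.7% and 46.4% in replicates 1, 2 and 3. It holds Mascrna and the 234 nt of the annotated body beyond it. Toward the 5′ end, the bin from 501 to 1000 nt had 59.4%, 50.2% and 92.6%. Every one of the 14 bins held common sequence. Over these bins the libraries had Pearson correlations of 0.736, 0.674 and 0.775 and Spearman correlations of 0.794, 0.516 and 0.623 (replicates 1 and 2, 1 and 3, 2 and 3), as a description of bins that share a transcript.

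Along Neat1, 8 of 42 bins lay under no peak in replicate 1 and none in the other libraries. The highest bin of replicate 1, from 2501 to 3000 nt, had 70.0%, beside 99.4% and 100% in replicates 2 and 3. Common sequence was found in 32 of 42 bins. The corresponding Pearson correlations were 0.319, 0.278 and 0.235 and the Spearman correlations 0.345, 0.269 and 0.241. The first peak centred inside the gene began 315, 102 and 131 nt from the 5′ end in replicates 1, 2 and 3.

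**Figure D4:**
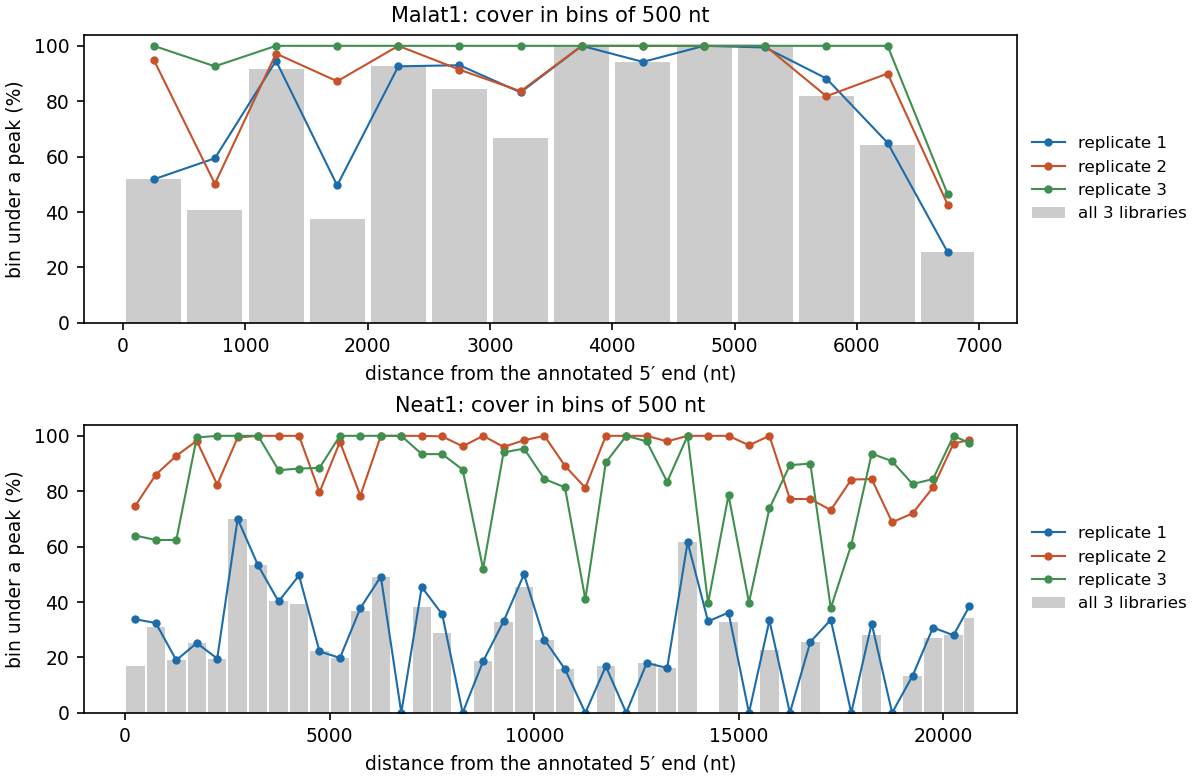
Share (%) of each 500-nt bin under sense-strand peaks along Malat1 (top) and Neat1 (bottom), by distance in nt from the annotated 5′ end. Lines are replicates 1 to 3 and grey bars the share covered in all 3 libraries. The Malat1 bins from 3501 to 4000 nt and 4501 to 5000 nt are at 100% in every library, and replicate 1 stays at or below 70.0% in every Neat1 bin.

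Malat1 cover exceeded Neat1 cover by 52.1 percentage points in replicate 1 and 12.5 in replicate 3, while in replicate 2 the difference was -4.62. The mean difference of 20 ± 29.1 (SD, n = 3) was within the spread between libraries (exact sign-flip permutation test, two-sided, p = 0.5). It turned to a mean of -8.48 with peaks of 86 to 200 nt only and to -5.84 with peaks of score 60 only, settings that leave out all and 8 of the 10 Malat1 peaks over 200 nt in replicate 3. With peaks of at most 1000 nt only it was 10.7, from 52.1, -4.36 and -15.5 in replicates 1, 2 and 3, higher for Malat1 in replicate 1 alone. Without replicate 1 and with all peaks it was 3.91. With central parts it was 23.6, from 39.7, 2.76 and 28.4 in replicates 1, 2 and 3, higher for Malat1 in 3 of 3 libraries (exact sign-flip permutation test, two-sided, p = 0.25).

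The short and long forms of Neat1 share their 5′ part, so peaks there cannot be assigned to either form. This shared part was covered for 33.3%, 89.5% and 82.4% in replicates 1, 2 and 3, and the part of the long form alone for 25.1%, 92.2% and 83.5%. The mean difference was 1.45 ± 5.85 percentage points (SD, n = 3; exact sign-flip permutation test, two-sided, p = 1). It was -1.89 without replicate 1 and -1.75 with central parts only. With only peaks of score 60 it was 11.1 ± 5.74 (SD, n = 3, positive in 3 of 3 libraries; exact sign-flip permutation test, two-sided, p = 0.25). Peaks of all 3 libraries overlapped the annotated end of the short form, and in the 100 nt after it 86, 100 and 100 nt lay under peaks. In replicate 1 this rested on the padding: the central parts of its peaks there ended 3170 nt and began again 3184 nt from the 5′ end, on either side of the end at 3172 nt.

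The common region across that end is shown because it holds the poly(A) signal of the short form. It is chr19:5842221-5842362 of GRCm38 on the minus strand, with the part inside the short transcript in capitals.
Neat1 common region at the short end: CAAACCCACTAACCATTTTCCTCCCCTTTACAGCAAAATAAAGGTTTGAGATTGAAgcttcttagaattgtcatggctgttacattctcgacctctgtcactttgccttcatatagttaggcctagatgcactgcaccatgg

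An AATAAA, the letters of the usual poly(A) signal, ends 14 nt before the annotated end of the short form, and 3 of the 6 AATAAA in Neat1 lay in common regions. In Malat1 3 of 4 did, and the fourth lies beyond Mascrna. The Pumilio element TGTANATA occurred 4 times in Neat1, with 3 inside common regions, and 0 times in Malat1. Runs of at least 7 T numbered 7 in Malat1, 5 of them inside common regions, and 14 in Neat1, 3 of them inside. Runs of at least 7 A numbered 1 and 2, none of them inside common regions. Only the transcribed strand was searched. Per kb, TGTANATA had 0.627 matches inside and 0.0626 outside the common regions of Neat1, from these 4 matches. AATAAA had 0.627 and 0.188 per kb in Neat1 and 0.583 and 0.546 in Malat1. T runs had 0.627 and 0.688 per kb in Neat1 and 0.971 and 1.09 in Malat1.

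Common regions of Neat1 were richer in A and T than the rest of the gene, at 56.4% against 51.6%. In Malat1 the shares were 58.0% and 56.2%. Nucleotides of Neat1 under replicate 1 peaks had 56.7% A and T and the others 51.3%. The shares were 53.2% and 47.5% in replicate 2 and 52.8% and 52.1% in replicate 3. These are descriptions of 2 sequences, with no test.

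The Malat1 stretch with the longest unbroken cover by central parts in all 3 libraries was 253 nt long, at chr19:5797492-5797744 (GRCm38, minus strand), 4929 to 5181 nt from the 5′ end. It is shown because it is the longest such stretch of the pair, under peaks of 400, 522 and 916 nt. In Neat1 the longest such stretch was 69 nt, at chr19:5835528-5835596.
Malat1 central stretch: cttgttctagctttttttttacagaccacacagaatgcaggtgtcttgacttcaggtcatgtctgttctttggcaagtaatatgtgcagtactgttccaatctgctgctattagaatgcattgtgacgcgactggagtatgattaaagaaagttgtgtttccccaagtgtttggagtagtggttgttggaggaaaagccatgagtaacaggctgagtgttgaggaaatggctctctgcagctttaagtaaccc
Neat1 central stretch: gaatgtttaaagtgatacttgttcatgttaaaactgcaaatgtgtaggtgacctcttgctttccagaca

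Matches to miRNA seeds were counted next, for 35 of 39 listed miRNAs whose sequence the RefSeq table (GRCm38.p6) holds. Malat1 held 20 matches to positions 2 to 8, of which 15 lay in common regions, and Neat1 held 69, of which 13 did. Per kb, this was 2.91 inside and 2.73 outside the common regions of Malat1, and 2.72 inside and 3.50 outside those of Neat1. Matches followed by A, called 8mers, numbered 5 in Malat1 and 12 in Neat1, and 4 and 1 of them lay in common regions. A match is a description of letters and shows no pairing.

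The miRNAs with an 8mer in a common region are shown, with 2 more that were listed by name whatever their matches: miR-9-5p, which has a match of 7 bases in Malat1, and miR-21a-5p, the miRNA whose targets the study sought. Of the other listed miRNAs, miR-22-3p, miR-96-5p, miR-153-3p, miR-181a-5p, miR-200b-3p, miR-204-5p and miR-217-5p also had matches of 7 bases in common regions of Malat1. The seed is in capitals.
miR-101a-3p: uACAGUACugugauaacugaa
miR-26a-5p: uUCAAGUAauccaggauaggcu
miR-103-3p: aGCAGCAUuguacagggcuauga
miR-15a-5p: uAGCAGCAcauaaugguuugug
miR-9-5p: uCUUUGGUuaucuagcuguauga
miR-21a-5p: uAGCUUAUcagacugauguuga

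Their 8mers in common regions, the miR-9-5p match and a further miR-26a-5p match are given with 25 bases on each side and the matched letters in capitals, on the minus strand of GRCm38. The first 4 and the last run hold 8mers and the others matches of 7 bases. In order they are chr19:5802381-5802438, chr19:5800327-5800384, chr19:5798971-5799028, chr19:5797610-5797667, chr19:5796730-5796786, chr19:5796643-5796699 and chr19:5830757-5830814.
Malat1 for miR-101a-3p: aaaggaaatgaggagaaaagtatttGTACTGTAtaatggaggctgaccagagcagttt
Malat1 for miR-26a-5p: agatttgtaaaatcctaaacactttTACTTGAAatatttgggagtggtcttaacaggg
Malat1 for miR-103-3p: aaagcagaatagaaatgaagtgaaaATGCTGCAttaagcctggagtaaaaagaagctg
Malat1 for miR-15a-5p: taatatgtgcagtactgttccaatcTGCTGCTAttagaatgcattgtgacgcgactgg
Malat1 for miR-9-5p: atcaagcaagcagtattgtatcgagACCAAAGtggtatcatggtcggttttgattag
Malat1 for miR-26a-5p, further match: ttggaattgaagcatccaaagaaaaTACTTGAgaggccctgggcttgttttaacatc
Neat1 for miR-15a-5p: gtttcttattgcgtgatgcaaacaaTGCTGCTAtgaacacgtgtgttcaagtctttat

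The miR-101a-3p 8mer lay 260 nt from the 5′ end of Malat1, 7 nt from the centre of an 88 nt peak in replicate 1 and of a 106 nt peak in replicate 2. In replicate 3 it lay under a peak of 556 nt, 69 nt from its centre. A further match to miR-101a-3p, of 7 bases, began 5017 nt from the 5′ end, and the miR-15a-5p 8mer began at 5031 nt. Both are inside the central stretch of 253 nt printed above. The peaks over them were 400, 522 and 916 nt wide, so they do not place Ago2 at either match.

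The miR-9-5p match, at 5912 nt, lay 35 and 19 nt from the centres of 2 narrow peaks in replicate 1. It lay 7 nt from the centre of a peak of 168 nt in replicate 2 and 27 nt from the centre of a peak of 330 nt in replicate 3. The miR-26a-5p 8mer, at 2314 nt, lay under peaks of 83 nt in replicate 1, of 119 and 256 nt in replicate 2 and of 696 nt in replicate 3. In replicate 1 most of this 8mer lay in the padding of its peak, outside the central part. The further miR-26a-5p match, at 5999 nt, lay 9, 21.5 and 60 nt from the centres of peaks of 130, 133 and 330 nt. The miR-103-3p 8mer, at 3670 nt, lay under peaks of 119, 379 and 2059 nt. In Neat1, the miR-15a-5p 8mer began at 14690 nt and a match of 7 bases to miR-103-3p at 14689 nt, so that the matches overlap. The peaks over them were 95, 448 and 198 nt wide. In replicate 1 the central part began at 14696 nt, so most of the 8mer and all of the miR-103-3p match lay in the padding. For miR-21a-5p neither gene held a match. Of all windows in Malat1 as long as the printed run, 0.736% held the 8mer of any given one of the 4 miRNAs, and the same share held the miR-9-5p match. In Neat1 0.492% of windows held the miR-15a-5p 8mer.

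Whether these miRNAs were themselves bound was read from peaks over their own arms, counted where a central part overlapped the arm by at least 15 nt. The arm of miR-15a-5p and that of miR-21a-5p had such a peak in all 3 libraries, and miR-101a-3p had it in replicate 1 alone. None was found for miR-9-5p, miR-26a-5p or miR-103-3p. Each of these has more than 1 locus in the table, and 0 of the 11 listed miRNAs with several loci had a peak in any library, against 21 of the 24 with a single locus. A missing peak of a miRNA with several loci therefore does not show that it was absent.

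Among all 55413 genes, Malat1 had the most exonic nt covered in all 3 libraries, 5150 nt, and Neat1 was second with 4793 nt, here with stretches of any length. Xist, the lncRNA that silences the X chromosome, followed among the lncRNA genes with 2274 nt. Next came Gm26917 with 1053 nt, Gm34788 with 978, Gm534 with 959 and Gas5, a host of small nucleolar RNAs, with 851. The miR-17 cluster host Mir17hg had 519 nt, Cct6a, here typed as a processed transcript, 509, and Snhg1, also a snoRNA host, 476. As a share of exonic length, Malat1 led the 14738 genes with at least 3000 nt of exons, and Neat1 was at rank 32. The ranks by nt, with no test, rested on the wide peaks in part: with peaks of at most 1000 nt Neat1 was first and Malat1 at rank 3, and with peaks of 86 to 200 nt they were at ranks 4 and 760.

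Of the other nuclear or well-known lncRNAs listed, 25 of 26 were in the annotation and 6 had a common region, namely Gas5, Xist, Tug1, Pvt1, Snhg14 and Pantr1, against 1.15% of all lncRNA genes. Snhg11, which is on the list, is typed as protein-coding in the annotation and so is not among those lncRNA genes. Their median common share was 0%. Xist was covered for 36.9%, 37.3% and 61.8% of its exons in replicates 1, 2 and 3, and Gas5 for 42.5%, 51.0% and 61.2%. Snhg11 reached 83.1% in replicate 2 and 0.575% and 2.10% in the others. Kcnq1ot1, an imprinted nuclear lncRNA, had 7.98%, 4.85% and 2.65%, and Meg3, another imprinted lncRNA, at most 1.96%. High cover in a single library, as for Snhg11, also occurred for Miat, with 45.2%, 0% and 1.41%.

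**Figure D5:**
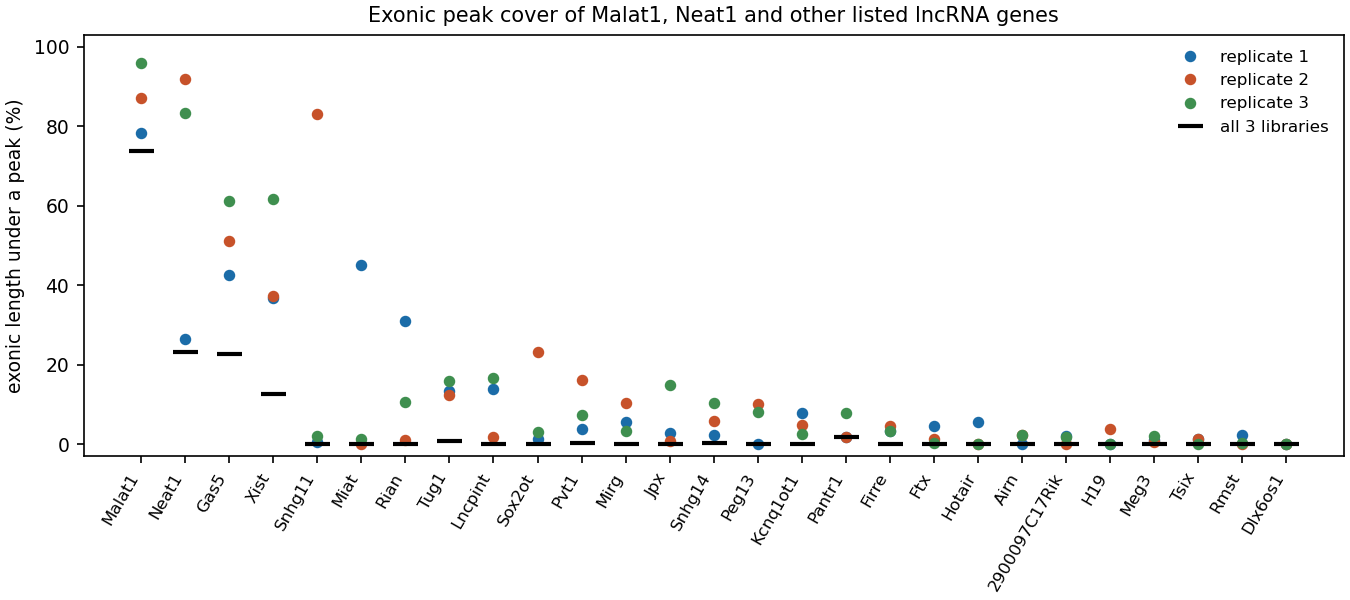
Share (%) of exonic length under sense-strand peaks for Malat1, Neat1 and the 25 other genes of the lncRNA list, ordered by their mean. Points are replicates 1 to 3 and black dashes the share covered in all 3 libraries. Malat1 is at 78.4% or above in every library, and only Neat1, Gas5 and Xist otherwise have a common share above 10%.

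The genes whose exonic cover in the 3 libraries came closest to Neat1 were all protein-coding. Among 14737 genes with at least 3000 nt of exons, the deadenylase gene Cnot6 had 25.3%, 90% and 78.6%, a summed difference of 7.62 percentage points. AW549877, Enc1, Ssr3 and Peg10 followed at 8.09 to 12.3 points. They were picked for this likeness, and their covers in replicate 1 ranged from 24.5% to 30.8%. Malat1 had no such near match: the closest, the fatty acid ligase gene Acsl4, had 44.4%, 86.4% and 91.4%, a summed difference of 39.1 points, ahead of Scd2 and Itgb1.

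Genes for the proteins that surround these RNAs were covered as well. Of 17 paraspeckle protein genes 12 had a common region, and of 15 nuclear speckle and splicing factor genes 12 did, against 18.9% of protein-coding genes. The lists were not matched to that background in exon length or expression. Their median exonic cover, averaged over libraries, was 21.1% and 27.9%, against 4.13% for protein-coding genes. Sfpq, which binds Neat1 in paraspeckles, had 22.9%, 30.4% and 55.2% in replicates 1, 2 and 3. Its partner Nono had 7.84%, 9.03% and 16.5% and no common region. Cpsf6, a cleavage factor subunit, had the highest mean of the paraspeckle genes, with 21.9%, 50.3% and 60.0%, while its partner Nudt21 had 1.5%, 0% and 2.15%. Of the speckle genes, Srsf2, a splicing factor, had 41.9%, 32.6% and 62.5%.

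Of 12 genes for the processing of tRNA-like 3′ ends, 3 had a common region, which is 25% beside the 18.9% of protein-coding genes and so near the background. They were Trnt1, which adds CCA to tRNAs and to Mascrna, and the RNase P subunit genes Pop5 and Rpp30. Elac2, the RNase Z that trims tRNA 3′ ends, had 2.27%, 13.1% and 11.7% and no common region. With all peaks, Malat1 and Neat1 each had a higher exonic common share than every gene of these protein lists, the highest of which was Cpsf6 with 12.2%. The lists were not compared under the other peak settings.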

How the data were processed

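Per the submitters' processing notes, FastQC, cutadapt and STAR were used with build mm10; versions and the peak caller are not given in the sources used here. The authors called peaks per sample and deposited them in a table with chromosome, start, stop, strand, a score of no stated unit and sample. Of value columns that could not be tied to a sample there were 0. The deposited score lay between 54.6 and 60 and was used only as a filter. Starts, counted from 0, went down to -30, from which padding of 30 nt at either edge was inferred.

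Genes came from GENCODE mouse M21 and sequences from RefSeq (GRCm38.p6, the build of mm10). Peaks were assigned by any overlap on the strand of the gene, replicates were taken from the labels, and covered length was the union of peaks. Common regions were runs of 8 nt or more under peaks of every library. The flanks were 10 kb on each side without exons of other genes. Differences were tested by exact sign-flip permutation over 3 libraries, two-sided; all other values are descriptions. Named were both genes, their neighbours within 30 kb, the 10 lncRNA genes with the most common exonic nt, the 5 genes (exons of at least 3000 nt) closest in cover to each member, miR-9-5p, miR-101a-3p, miR-21a-5p and miRNAs with an 8mer in a common region, and members of fixed lists; a few genes under these rules are not reported here. Members, lists and tests were chosen with earlier results of these data known. Alternatives changed padding, peak width, score, strand, assignment by midpoint, length and number of libraries of common regions, flank length, and left out each replicate. Interval functions were tested on simulated data. The tools were pysam 0.24.0, scipy 1.17.1, matplotlib 3.10.9, pandas 2.3.3, numpy 2.4.6 and Python 3.11.15. Intervals carry no read counts, so no counting error can be given.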

Additional observations from a re-analysis of the deposited data

How the results depend on the processing

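Of 134 alternative values, 102 kept their direction or size, 28 moved and 4 reversed. Differences were judged by sign, and means over libraries by whether they moved by less than the SD in the main setting. Other values were judged by a fixed ratio to the main value. The same change in size can thus count as kept for a result and as moved for another. The direction was kept in 40 of 44 alternatives of the 6 differences between strands, flanks, genes and isoforms. Malat1 minus Neat1 reversed to -8.48 percentage points with peaks of 86 to 200 nt only and to -5.84 with only peaks of maximum score, with a range of 3.91 to 32.3 over the fits that left out a replicate. The short minus the long part of Neat1 reversed to -1.75 with peaks trimmed by 30 nt, was 11.1 at maximum score, and ranged from -1.89 to 3.52 with each replicate left out. Trimmed peaks, peaks of 86 to 200 nt, peaks of at most 1000 nt and peaks of maximum score gave a Malat1 cover of 70.2%, 38.1%, 77.8% and 44.5%, and a common share of Malat1 of 41.1%, 2.11%, 49.1% and 4.8%. The common regions of Malat1 numbered 61 with trimmed peaks, 4 at 86 to 200 nt, 6 at maximum score and 6 in at least 2 libraries, where neighbouring regions join, and 9 to 22 with each replicate left out, with 9 without replicate 1. Those of Neat1 numbered 20 at 86 to 200 nt and 31 at maximum score. The common share of Neat1 was 6.58% trimmed, 7.25% at 86 to 200 nt, 10.2% at maximum score, 79.3% in at least 2 libraries, and 23.3% to 76.1% with each replicate left out, highest without replicate 1. The share of all genes with a common region was 4.87% at 86 to 200 nt, 21.7% in at least 2 libraries and 12.4% to 17.2% with each replicate left out, with 17.2% without replicate 1 and 13.8% without replicate 2. Common regions need every library, so leaving a library out can only widen them; other causes were not tested. The alternative settings for the ranks of the pair were chosen after seeing the data. No paired analysis was possible because there is only 1 group of samples, so no groups could be paired; the differences tested were taken within each library. Read depth was unknown, which leaves the strength of each peak unmeasured.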
